A study of Mus musculus with 16 samples.

Results

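Receptors for chemokines and other leukocyte attractants were examined in RAW264.7, a mouse line of macrophage-like cells that came from a tumour, by 1-colour Agilent microarray. The group holds 8 genes, namely the chemokine receptors Ccr1, Ccr2, Cx3cr1 and Cxcr4, the chemokine receptor-like gene Ccrl2, the formyl peptide receptors Fpr1 and Fpr2, and the platelet-activating factor receptor Ptafr. Members were taken as every array probe other than a control whose gene name was one of these symbols, which gave 10 probes. Of the 8 genes, 5 had a signal that could be tested, among 15886 genes tested in all. Cells had been kept in medium with 0.5% serum and received for 60 min either DMSO as the vehicle or 20 μM of cordycepin, which resembles adenosine and is an inhibitor of polyadenylation. LPS, a bacterial cell wall component that activates macrophages through Toll-like receptor signalling, was then added at 1 μg/ml for a further 60 min, or was left out. All cultures were thus in cordycepin or DMSO for 120 min, and the 4 conditions are named DMSO, cordycepin, LPS+DMSO and LPS+cordycepin. Each had 4 biological replicates with 1 array each, 16 arrays in all, and each replicate number was a separate culture day. RAW264.7 is a transformed line, so its receptor repertoire need not be that of a tissue macrophage.

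Chemoattractant receptors are G protein-coupled receptors of the cell surface that direct leukocytes up a gradient of ligand. Ccr1 and Ccr2 bind CC chemokines, and Ccr2, the receptor of Ccl2, Ccl7 and Ccl12, brings monocytes out of bone marrow. Cx3cr1 binds fractalkine and marks resident macrophages and patrolling monocytes, and Cxcr4 binds Cxcl12 and retains cells in bone marrow. Fpr1 and Fpr2 detect formylated peptides of bacteria and mitochondria, and Ptafr detects a phospholipid mediator. Ccrl2 resembles a chemokine receptor but is atypical, because it binds the attractant chemerin without the usual G protein signal. The comparison asked which of these genes changed with LPS, which with cordycepin, and whether cordycepin altered the response to LPS.

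Because cordycepin acts on the formation of mRNA 3′ ends, the stretch of transcript that each probe reads is given first. Probes were 60 bases long. Of the 10, 4 contained AATAAA, the canonical hexamer of the poly(A) signal, as did 5602 of the 55681 probes on the array, searched on the probe strand only. These were the probes of Cxcr4 and Ptafr and both overlapping probes of Cx3cr1. Whether the signal is used there was not measured. The stretches below are 30 bases of each probe, 5′ to 3′, with AATAAA in capitals. They were taken from the array files.
Ptafr: tgtaaccagaggAATAAAcacagaagttga
Cxcr4: tgtggtaaattgAATAAAgctagccgtgat
Cx3cr1: tgtaattctgtcAATAAAcattggtttcct
The probes belonging to these stretches map on mm9 to chr4:132136722-132136781 on the plus strand for Ptafr (NM_001081211), chr1:130485079-130485138 on the minus strand for Cxcr4 (NM_009911) and chr9:119957811-119957870 on the minus strand for Cx3cr1 (NM_009987). The probe of Ccrl2 (NM_017466) at chr9:110957397-110957456 and that of Ccr2 (NM_009915) at chr9:124022948-124023007 hold no AATAAA.

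Between 21999 and 30362 of the 59305 non-control spots (37.1% to 51.2%) were well above background on each array by the scanner software's own test. Signals are given on a log2 scale after scaling every array by its 75th percentile, and levels of different probes were not compared. The labels were checked with Tnf, whose log2 change with LPS was 6.71 (adjusted p = 1.08e-14, limma). All 10 macrophage markers were tested, and their summed level was 18.90 to 19.34 (log2) over the 16 arrays. Of these, Cd14 rose by 1.12 and Fcgr1 fell by 1.14 with LPS, and the others were called in no comparison. Of 25 markers of T cells, B cells, neutrophils, fibroblasts and epithelia on the array, 19 were too dim to be tested. The exceptions included Cd79a, Cd79b and Mpo, which were higher in LPS+cordycepin than in LPS+DMSO by 2.64, 1.76 and 3.97 and were well above background on 12, 9 and 13 of the 16 arrays. Mpo was also higher with cordycepin at rest (2.02), a comparison in which Ptafr was lower. As Cd79a, Cd79b and Mpo were not well above background on every array, their changes are given as a description. S100a8 and Elane, neutrophil markers well above background on all 16 arrays, changed by -0.05 (adjusted p = 0.967, limma) and -0.54 (adjusted p = 0.21, limma) in LPS+cordycepin against LPS+DMSO. The summed level of the 4 B cell markers was 8.64 to 10.19 in LPS+cordycepin and 6.38 to 7.40 in the other conditions, whereas the B cell marker Ms4a1 was well above background on no array. For the 7 neutrophil markers it was 10.39 to 11.19 against 9.56 to 10.62, with Ly6g, S100a9, Ltf and Ngp well above background on no array. The part of these genes in the results below was not tested. In bulk RNA, fewer cells of a type and less RNA per cell cannot be told apart. The array of DMSO replicate 2 stood apart from the other DMSO arrays by over 2 on the log2 scale for a few of the 14569 genes detected there, 3 lower and 19 higher, and Cx3cr1 was among the low ones. By the same measure LPS+cordycepin replicate 3 had 22 genes lower and 2 higher, cordycepin replicate 3 had 10 lower and 2 higher, and LPS+cordycepin replicate 2 had 9 lower, with no tested member among them.

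Ccrl2 was the member that LPS raised. Its signal was 6.76, 6.90, 5.94 and 5.84 in DMSO (replicates 1 to 4) and 6.29, 6.30, 6.00 and 6.31 in cordycepin. In LPS+DMSO it was 11.63, 11.84, 11.58 and 12.00, and in LPS+cordycepin 11.26, 11.41, 11.69 and 11.70. The 8 arrays with LPS were thus all above the 8 without it, and the conditions with and without cordycepin overlapped at either state. LPS raised Ccrl2 42.3-fold in DMSO (log2 change 5.40, 95% confidence interval 4.95 to 5.85, adjusted p = 1.00e-10, limma), the rank 10 rise among all genes tested. In cordycepin LPS raised it 39.1-fold (5.29, interval 4.84 to 5.74, adjusted p = 2.01e-10, limma), the rank 8 rise there. With normexp background correction these changes were smaller, at 4.21 and 4.09, and both were still called. Both rises were seen on 4 of 4 culture days. On the slide of replicates 1 and 2 the LPS change in DMSO was 4.90, and on the slide of replicates 3 and 4 it was 5.90. Cordycepin changed the LPS-treated level by -0.25 (interval -0.70 to 0.21, adjusted p = 0.517, limma), lower on 3 of 4 days, and the resting level by -0.13 (interval -0.58 to 0.32, adjusted p = 0.754, limma). Taken as the response in cordycepin minus that in DMSO, the LPS responses of Ccrl2 differed by -0.11 (interval -0.75 to 0.53, adjusted p = 0.983, limma), so a reduction of the response by more than 0.75 lay outside the interval. The gene was well above background on 15 of 16 arrays, with cordycepin replicate 2 the exception.

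**Figure D1:**
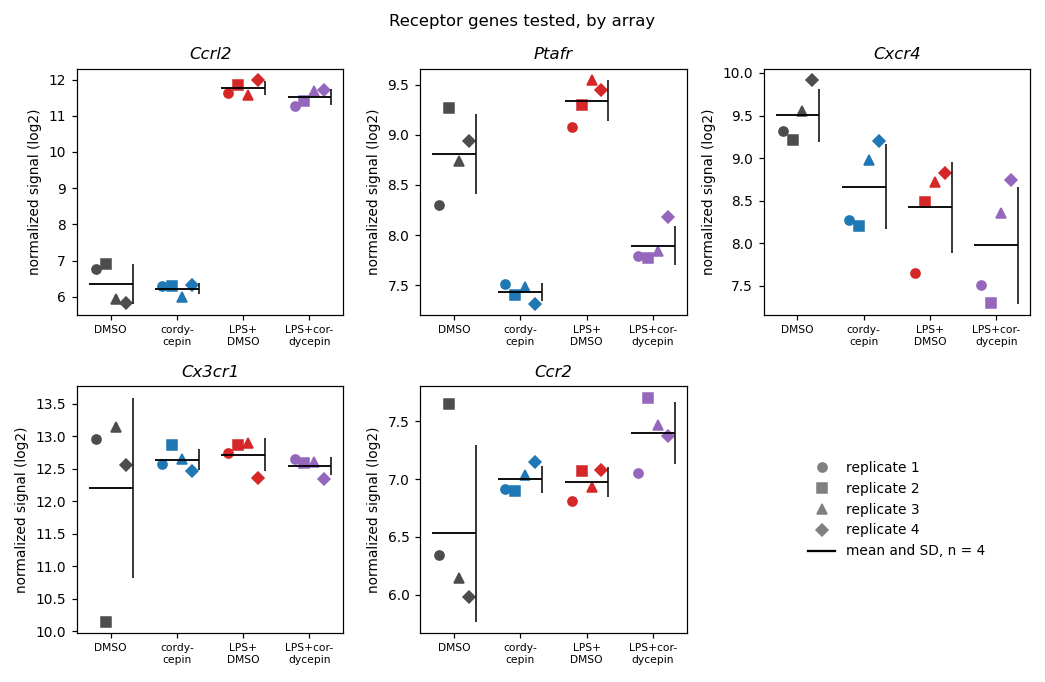
Normalized log2 signal of the 5 tested receptor genes (vertical axes, each with its own range) in the 4 conditions. Symbols are arrays by replicate number, horizontal lines are means and vertical lines are SD (n = 4 arrays). Ccrl2 is high on all 8 LPS arrays, Ptafr is low on all 8 cordycepin arrays, Cxcr4 is highest in DMSO, and the DMSO spread of Cx3cr1 and Ccr2 comes from replicate 2.

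The start site of Ccrl2 is shown because it was the only member with a match to the NF-kB consensus in its promoter windows. NF-kB is a transcription factor that LPS activates. Windows of 300 bases (250 before to 50 after each annotated start) were taken from RefSeq, GRCm38.p6. All 8 genes matched, with 10 windows, and both strands were searched. The NF-kB consensus was present in 1 of the 10 windows and in 4.51% of all 32851. The AP-1 motif TGANTCA was in none of the 10 and in 7.81% of all. The 250 bases before that Ccrl2 start, chr9:111057519-111057768 on the minus strand of GRCm38.p6, read 5′ to 3′ with the NF-kB match in capitals as follows.
Ccrl2 promoter: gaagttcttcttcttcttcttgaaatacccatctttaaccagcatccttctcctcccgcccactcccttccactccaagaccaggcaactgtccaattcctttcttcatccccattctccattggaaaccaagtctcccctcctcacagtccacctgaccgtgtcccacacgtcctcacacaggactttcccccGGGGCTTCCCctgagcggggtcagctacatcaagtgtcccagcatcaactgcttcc
The match spans bases 56 to 47 before the start, in 1 of the 3 windows listed for the gene. It is a match of letters, and binding was not measured.

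Ptafr was lowered by cordycepin with or without LPS. Its signal was 8.30, 9.26, 8.73 and 8.94 in DMSO and 7.52, 7.40, 7.48 and 7.32 in cordycepin. With LPS it was 9.07, 9.30, 9.55 and 9.45 in LPS+DMSO and 7.79, 7.77, 7.84 and 8.18 in LPS+cordycepin. Every array with cordycepin lay below every array without it. Cordycepin lowered resting Ptafr 2.60-fold (-1.38, interval -1.74 to -1.02, adjusted p = 2.53e-05, limma) and LPS-treated Ptafr 2.73-fold (-1.45, interval -1.81 to -1.09, adjusted p = 1.09e-05, limma). Both falls were seen on 4 of 4 days, at -1.32 and -1.44 on the respective slides at rest and -1.41 and -1.49 with LPS. In order of size these were the falls of rank 71 at rest and rank 101 with LPS among all genes tested. LPS changed Ptafr by 0.53 in DMSO (interval 0.17 to 0.89, adjusted p = 0.0456, limma), higher on 4 of 4 days but short of 2-fold and with overlapping groups. Without DMSO replicate 2 this was 0.68 (adjusted p = 0.00653, limma), and in a fit of only DMSO and LPS+DMSO its adjusted p was 0.139. In cordycepin the LPS change was 0.47 (interval 0.11 to 0.83, adjusted p = 0.127, limma), and here the groups did not overlap. The LPS responses of Ptafr with and without cordycepin differed by -0.07 (interval -0.58 to 0.44, adjusted p = 0.991, limma). In order of mean, Ptafr was thus highest in LPS+DMSO (9.34 ± 0.21), then DMSO (8.81 ± 0.40), LPS+cordycepin (7.90 ± 0.19) and cordycepin (7.43 ± 0.09; SD, n = 4 arrays each).

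Cxcr4 was the member that LPS lowered. Its signal was 9.32, 9.21, 9.55 and 9.92 in DMSO and 7.65, 8.49, 8.72 and 8.83 in LPS+DMSO. In cordycepin it was 8.27, 8.20, 8.98 and 9.20, and in LPS+cordycepin 7.51, 7.30, 8.35 and 8.74. DMSO did not overlap with LPS+DMSO or, by a margin of 0.02, with cordycepin, while both other pairs overlapped. LPS lowered Cxcr4 2.11-fold in DMSO (-1.08, interval -1.80 to -0.36, adjusted p = 0.0429, limma), on 4 of 4 days. This call was close to both limits. It was lost in 18 of 38 alternatives, among them 11 of the 20 fits without 1 of the replicates or arrays. Over all 38 alternatives the change was -1.22 to -0.82. In each of the other comparisons the change was also below 0 on 4 of 4 days. It was -0.84 with cordycepin at rest (interval -1.56 to -0.12, adjusted p = 0.116, limma), -0.69 with LPS in cordycepin (interval -1.41 to 0.03, adjusted p = 0.316, limma) and -0.45 with cordycepin in LPS (interval -1.17 to 0.27, adjusted p = 0.449, limma). On every array of replicates 1 and 2, the signal was below that of both replicates 3 and 4 of the same condition, and these pairs of days were on separate slides. With the replicate number as a block, the LPS fall had an adjusted p of 0.000676, cordycepin at rest 0.00384, LPS in cordycepin 0.0221 and cordycepin in LPS 0.0906 (limma), and the latter 3 changes remained short of 2-fold. Its LPS responses with and without cordycepin differed by 0.39 (interval -0.63 to 1.41, adjusted p = 0.945, limma).

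**Figure D2:**
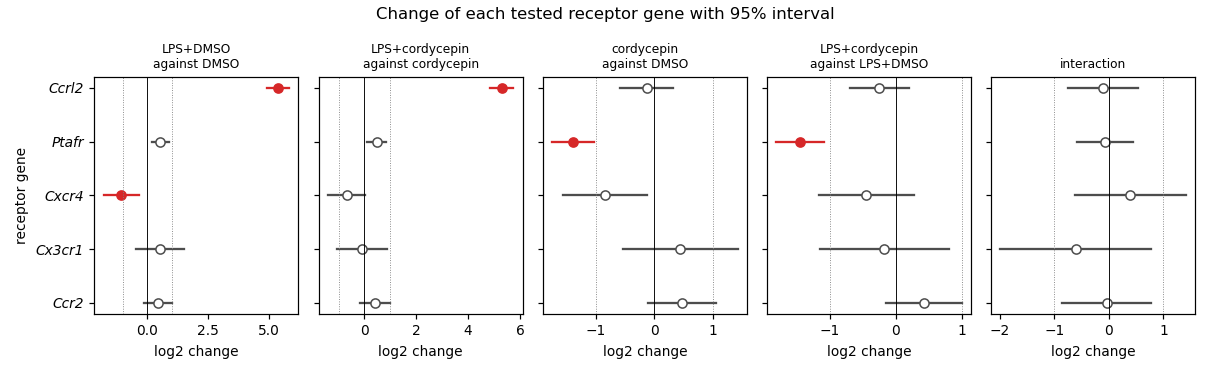
Log2 change of each tested receptor gene (horizontal axes, with a different range in each panel) in 5 comparisons, the last of which (interaction) subtracts the LPS response in DMSO from that in cordycepin. Points are limma estimates, lines are 95% confidence intervals, dotted lines mark 2-fold, and filled red points were called. The calls were Ccrl2 (5.40 and 5.29) and Cxcr4 (-1.08) with LPS, and Ptafr (-1.38 and -1.45) with cordycepin.

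Cx3cr1 was called in no comparison, and the low mean and wide spread of its DMSO signal came from 1 array. The brightest of its 3 probes gave 12.96, 10.15, 13.15 and 12.56 in DMSO and 12.57, 12.87, 12.66 and 12.48 in cordycepin. It gave 12.75, 12.87, 12.91 and 12.36 in LPS+DMSO and 12.66, 12.60, 12.60 and 12.34 in LPS+cordycepin. Except for DMSO replicate 2, all arrays lay between 12.34 and 13.15. The second probe shares 55 bases with the first and gave 9.96 on that array, against 12.42 to 13.00 on the other DMSO arrays. The other probe, 1147 bases away at chr9:119959018-119959077, gave 7.68 against 10.96 to 11.12, so that the low value was found at separate spots and sequences. In the whole set of arrays LPS changed Cx3cr1 by 0.51 (interval -0.46 to 1.49, adjusted p = 0.567, limma) and cordycepin by 0.44 (interval -0.54 to 1.41, adjusted p = 0.608, limma). Without DMSO replicate 2 these turned to -0.17 (adjusted p = 0.574, limma) and -0.25 (adjusted p = 0.361, limma). The changes that do not involve DMSO were -0.17 for cordycepin in LPS (adjusted p = 0.872, limma) and -0.09 for LPS in cordycepin (adjusted p = 0.961, limma).

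**Figure D3:**
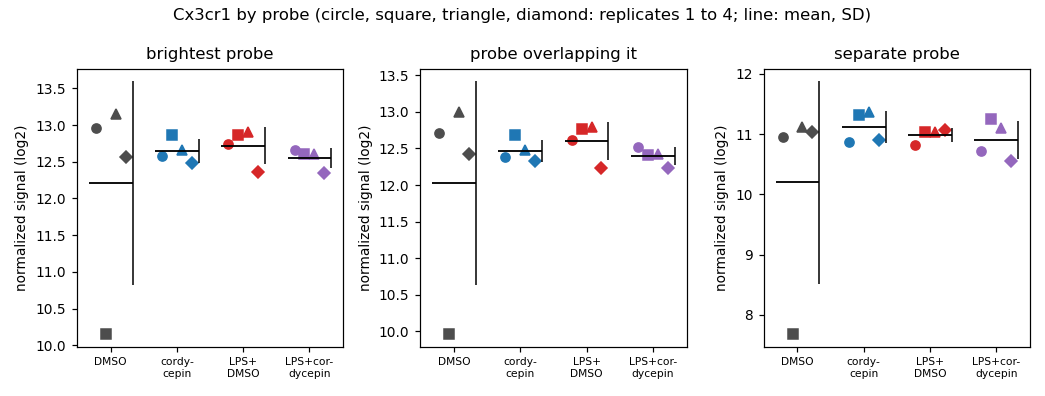
Normalized log2 signal of Cx3cr1 by probe (panels) and condition. Circles, squares, triangles and diamonds are replicates 1 to 4, and lines are mean and SD (n = 4 arrays). DMSO replicate 2 is low in each panel, at 10.15, 9.96 and 7.68.

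The same array was high for Ccr2, at 7.65 against 5.98 to 6.34 on the other DMSO arrays. In cordycepin Ccr2 was 6.91, 6.90, 7.03 and 7.15. LPS+DMSO arrays gave 6.81, 7.07, 6.93 and 7.08, and LPS+cordycepin arrays gave 7.05, 7.70, 7.47 and 7.37. The other 3 DMSO arrays were thus below all 12 treated arrays. In the whole set no change of Ccr2 was called. It was 0.44 with LPS (interval -0.13 to 1.02, adjusted p = 0.337, limma), 0.47 with cordycepin (interval -0.11 to 1.04, adjusted p = 0.288, limma) and 0.43 with cordycepin in LPS (interval -0.15 to 1.00, adjusted p = 0.346, limma). Without DMSO replicate 2, Ccr2 passed the test in all 3, at 0.82 (adjusted p = 0.000836, limma), 0.84 (adjusted p = 0.000547, limma) and 0.43 (adjusted p = 0.0269, limma), and each change was short of 2-fold. The last of these changes does not use the DMSO arrays and had the same size with and without that array, while its p rests on a spread that all conditions share in the fit. LPS in cordycepin gave 0.40 in the whole set (adjusted p = 0.523, limma).

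Ccr1, Fpr1 and Fpr2 were too dim to be compared. Ccr1 and Fpr2 were well above background on 0 of 16 arrays, and Fpr1 on 2 of 16, DMSO replicate 4 and cordycepin replicate 3. Over all arrays the signal ranged from 2.39 to 5.50 for Ccr1, from 2.42 to 5.48 for Fpr1 and from 2.47 to 4.89 for Fpr2. The arrays therefore set no direction for these genes, and a change below the detection limit would have been missed.

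**Figure D4:**
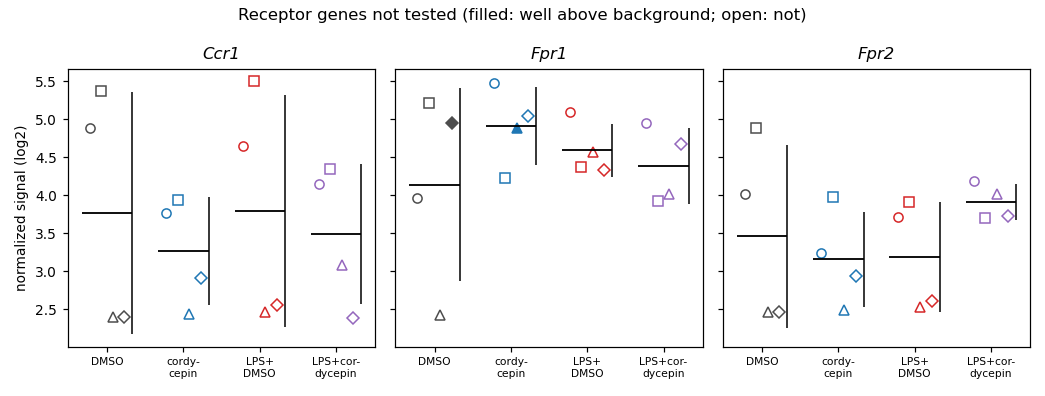
Normalized log2 signal of the 3 receptor genes that were not tested, by condition. Filled symbols are spots well above background and open symbols are not, and lines are mean and SD (n = 4 arrays). Only 2 spots of Fpr1 are filled.

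Counted together, LPS called 1 of the 5 tested members higher and 1 lower in DMSO, where 2.09% of all genes tested were called higher and 2.49% lower. Passing the test in the higher direction without a minimum fold were 2 members, against 5.12% of all genes. In LPS+cordycepin against LPS+DMSO 1 of 5 was lower (background 1.52%) and 0 were higher (5.94%), and in cordycepin against DMSO 1 of 5 was lower (1.08%) and 0 were higher (4.48%). LPS in cordycepin called 1 of 5 higher (1.71%) and 0 lower (1.18%). For the interaction, 0 of 5 were called by limma or at an unadjusted p under 0.05, with 0.208% of all genes called higher and 0.157% lower. The counts of 0 were also 0 at an unadjusted p under 0.05, and 5 genes give only a coarse share. The median change of the members was 0.51 with LPS, -0.25 with cordycepin in LPS, -0.13 with cordycepin at rest and 0.40 with LPS in cordycepin. The medians of all genes were -0.04, 0.03, 0.03 and -0.04. With 5 genes each member median is the value of 1 gene. For LPS that gene was Cx3cr1, whose change was -0.17 without DMSO replicate 2.

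A list of 33 further chemoattractant receptors was read in the same way. Of these, 31 were on the array, 15 of these had no spot well above background, and 6 were tested, namely C3ar1, C5ar1, C5ar2, Cxcr3, Gpr183 and Ltb4r1. None of the 6 was called lower in any comparison, and of all genes only 0.157% to 2.49% were, depending on the comparison. C5ar1, which binds the complement fragment C5a, was higher by 2.66 with LPS, at 6.14 ± 0.56 in DMSO and 8.80 ± 0.15 in LPS+DMSO (SD, n = 4 arrays each). It was well above background on 4 of 4 arrays in LPS+DMSO and in LPS+cordycepin but on 3 of 4 in DMSO and in cordycepin. As it was tested only because of the LPS conditions, these values are given as a description. C5ar2, a further receptor of C5a without G protein coupling, had means of 6.35 ± 0.15 (DMSO), 6.90 ± 0.13 (cordycepin), 6.96 ± 0.20 (LPS+DMSO) and 9.52 ± 0.15 (LPS+cordycepin; SD, n = 4 arrays for each mean). The 4 arrays with both agents were at 9.39 to 9.72 and all others at or below 7.21. Its LPS response was larger in cordycepin by 2.01 (interval 1.66 to 2.37, adjusted p = 3.02e-05, limma). A second, dimmer C5ar2 probe was well above background on 3 LPS+cordycepin arrays and on no other array. Ltb4r1, the leukotriene B4 receptor, was well above background on 4 of 4 arrays in cordycepin and in LPS+cordycepin but on 2 of 4 in DMSO and in LPS+DMSO. It was tested only because of the cordycepin conditions, so its signals are given as a description. They were 3.87 to 5.02 in DMSO, 6.34 to 7.08 in cordycepin, 4.23 to 6.45 in LPS+DMSO and 6.61 to 7.55 in LPS+cordycepin, and at neither state did the conditions with and without cordycepin overlap.

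Ligands of these receptors, and enzymes that make or degrade them, were read as a further list. Of 25 genes 18 were tested, and LPS raised 8 of them, against 2.09% of all genes tested. These were Ccl2, Ccl3, Ccl4, Ccl5, Ccl7, Ccl12, Saa1 and Saa3. The median over the 18 was 0.41. Cordycepin in LPS raised 0 of the 18, close to the share of all genes called higher (5.94%), and the median was -0.27. It lowered 4 of the 18, against 1.52% of all genes. These were the Ccr2 ligands Ccl2 (-1.32, adjusted p = 4.33e-05, limma), Ccl7 (-2.12) and Ccl12 (adjusted p = 0.0357, limma), and the chemokine gene Ccl4 (-1.06). The fall of Ccl12 was at the 2-fold limit. Ccl3, a ligand of Ccr1, changed by -0.61 (adjusted p = 0.0188, limma), short of 2-fold. Ccl5 changed by -1.42 (adjusted p = 0.0564, limma), lower on 4 of 4 days, from 13.60 ± 0.12 to 12.18 ± 0.21 (SD, n = 4 arrays each). DMSO replicate 2 was high for it at 13.95 against 11.05 to 11.26. That array is no part of this change and enters its p only through the spread that all conditions share. Cxcl12 and Cx3cl1, the ligands of Cxcr4 and Cx3cr1, and the chemerin gene Rarres2 were not tested, being too dim. Among 36 signal transduction genes, 32 were tested. Rgs1, which shortens G protein signals, rose by 1.70 with LPS (adjusted p = 3.85e-06, limma) and fell by 1.68 with cordycepin in LPS (adjusted p = 2.56e-06, limma). Rgs2, a relative of it, fell by 1.49 with cordycepin in LPS (adjusted p = 3.39e-06, limma). The other 30 were called in no comparison, and of all genes 0.157% to 5.94% were called in any 1 comparison and direction.

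**Figure D5:**
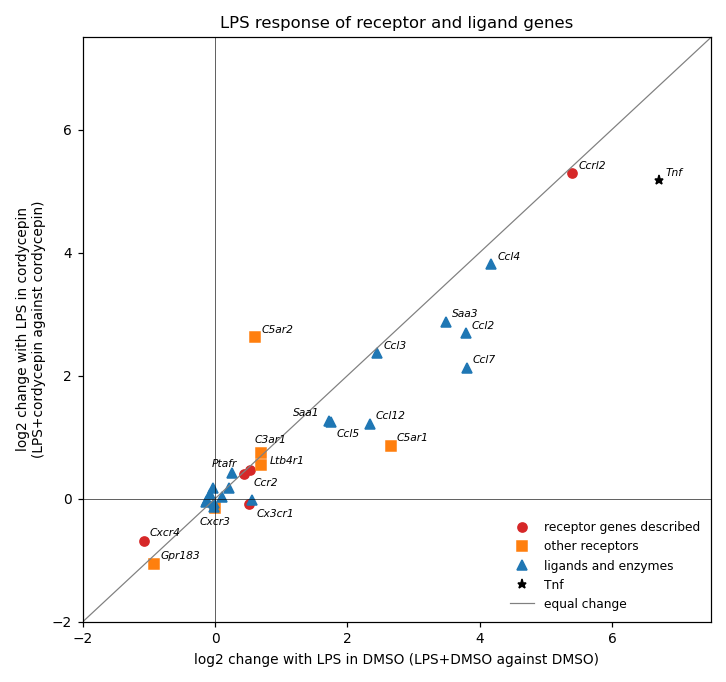
Log2 change with LPS in DMSO (horizontal axis) and in cordycepin (vertical axis) for the tested receptor genes, the other receptors, the ligands and enzymes, and Tnf. Each point is 1 gene from the limma fit, and the grey line marks equal changes. Ccrl2 lies beside the line (5.40 and 5.29), Ccl7 (3.80 and 2.12) and Tnf (6.71 and 5.18) lie under it, and C5ar2 (0.61 and 2.62) lies over it. The difference between the responses was called for Tnf and C5ar2 but not for Ccl7 (-1.68, adjusted p = 0.127, limma).

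Genes with the pattern most like that of a called member were found by the root mean square difference of their centred log2 signals over the 16 arrays. For Ccrl2 these were Maff (0.42), Ier3 (0.42) and Dusp8 (0.45), against a median of 2.72 over all genes. Dusp8 was well above background on none of the 8 arrays without LPS. For Ptafr they were Ccdc93 (0.26), Prdm2 (0.27) and Etv6 (0.28), against a median of 0.83. For Cxcr4 they were 8030453O22Rik (0.23), Ccdc9b (0.33) and Sema4b (0.34), against a median of 0.74. All of these values share the same 16 arrays and their scaling.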

How the data were processed

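RNA of 16 RAW264.7 cultures (4 conditions, 4 culture days) was measured on 1-colour arrays. The authors read them with Agilent Feature Extraction (10.7.3.1 in the file headers, 10.10.1.1 in the submitters' processing notes, which also name limma). Their deposited values are processed spot intensities, corrected for background and spatial trend and not scaled between arrays. The log2 table deposited by the authors was already normalized between arrays by a method not given in the sources used here, and served as an alternative. Probe positions are on mm9.

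Outlier spots were left out, spots of a probe were averaged, and log2 signals were set relative to each array's 75th percentile among 18158 probes that every array detected (well above background), as under 50% of spots were detected on most. Probes had to be well above background on every array of some condition (21611 did), with the brightest probe for each of 15886 genes (11662 with a symbol). Names came from RefSeq by accession (27656 probes), symbol (3401) or synonym (321), and 24303 kept the array's name. A fit of 4 condition means used limma 3.58.1 in R 4.3.3, tested on simulated data, with Benjamini-Hochberg adjustment over all genes. A gene passed the test at an adjusted p under 0.05 and was called if it also changed at least 2-fold. Changes are means of 4 arrays per condition, which limits their precision. Files were read and plots drawn in Python 3.11.15 (pandas 2.3.3, numpy 2.4.6, matplotlib 3.10.9).

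Replicate numbers are culture days shared by the conditions, so the numbers pair the cultures. The mean correlation of residuals was 0.20 for arrays of one number (-0.06 to 0.44, 20 of 24 pairs over 0.1), with means of 0.18 for other numbers of one slide and -0.19 across slides. The fit had no block, and a replicate block was an alternative, as were other backgrounds, scalings, filters, thresholds, a slide block and leaving out replicates or arrays. The fit with a replicate block and without DMSO replicate 2 was added after seeing the data. Members, gene lists and tests were chosen with earlier results of these data known. All 8 members are named, with Tnf, genes of the other lists called in at least 1 comparison, and the 3 genes most like each called member. The names of other tested receptors, of dim list genes and of Ccl3 and Ccl5 in the cordycepin comparison, and the markers that changed, were added after their values were seen.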

Additional observations from a re-analysis of the deposited data

Results flagged for a closer look

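One array far from the other 3 was found in 4 of 28 groups of member probes and in 7 of 112 groups of the other named genes, by Dixon's ratio (the gap to the nearest array over the whole range of the group), and chance gives about 1 in 20, or 1.4 and 5.6 groups. Among the members the ratio was 0.954 for the separate probe of Cx3cr1 in DMSO, where replicate 2 was at 7.68 against 10.96 to 11.12. It was 0.848 for the same probe in LPS+DMSO, where replicate 1 was at 10.82 against 11.03 to 11.07. For Ccrl2 in cordycepin it was 0.913, with replicate 3 at 6.00 against 6.29 to 6.31. For Ptafr in LPS+cordycepin it was 0.844, with replicate 4 at 8.18 against 7.77 to 7.84. The brightest Cx3cr1 probe and Ccr2, both unusual in DMSO replicate 2, did not reach the limit.

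Among the other genes the ratio was 0.927 for Ccl5 in DMSO, where replicate 2 was at 13.95 against 11.05 to 11.26. It was 0.859 for C5ar2 in cordycepin, 0.896 for Ccl2 in LPS+DMSO, 0.925 for Ccl4 in LPS+cordycepin, 0.839 for Ccl7 in LPS+DMSO, 0.846 for Rgs2 in LPS+DMSO and 0.957 for the B cell marker Cd79b in DMSO, where its signal was dim.

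The response to LPS differed between cordycepin and DMSO for C5ar2 (2.01, adjusted p = 3.02e-05, limma), larger in cordycepin on 4 of 4 days, and for Tnf (-1.54, adjusted p = 0.00037, limma), smaller on 4 of 4 days. It was also larger in cordycepin for Mpo (1.96) and Cd79a (2.29), on 4 of 4 days each. Neither gene was well above background on every array, so these values are given as a description. No member was called for such a difference. For the members not given above, it was -0.61 for Cx3cr1 (interval -1.99 to 0.77) and -0.04 for Ccr2 (interval -0.85 to 0.77).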

How the results depend on the processing

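The calls of Ccrl2 with LPS and of Ptafr with cordycepin were kept in every alternative that gave a value, 37 for Ccrl2 and 38 for Ptafr. Their ranges were 4.21 to 5.58 and 4.09 to 5.48 for Ccrl2 in DMSO and in cordycepin, and -1.58 to -1.05 and -1.58 to -1.11 for Ptafr at rest and with LPS. The number of members called in LPS+DMSO against DMSO, 2 as reported, was 1 when Cxcr4 lost its call, which happened with normexp background correction (-0.94), quantile normalization (-0.99), scaling to spiked-in controls (-1.19, adjusted p = 0.16, limma), the authors' normalized values (-0.93), no filter on dim probes (adjusted p = 0.142, limma), an adjusted p under 0.01, and the methods' univariate test. With no minimum fold it was 3, as Ptafr passed the test (0.53). Leaving out replicates or arrays gave 1 to 2 members called, and Cxcr4 lost its call without any one of replicates 1 to 4, without DMSO replicate 1, 3 or 4, without cordycepin replicate 3, and without LPS+DMSO replicate 1, 2 or 3. Its change was smallest, -0.82, without LPS+DMSO replicate 1. With probes required on all 16 arrays, Ccrl2 was not tested, so that 1 member was called with LPS in DMSO and 0 with LPS in cordycepin. In the other 3 comparisons the number called kept its value under all alternatives.

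With the replicate block the numbers called were 2, 1, 1, 1 and 0 in the 5 comparisons, as without it, and it changed no member's call. With the block and without DMSO replicate 2, an alternative chosen after seeing the data, Ccr2 changed by 0.78 with LPS (adjusted p = 0.0024, limma) and by 0.81 with cordycepin (adjusted p = 0.00178, limma). Scaling to spiked-in controls moved the median of all genes to -0.15 with LPS, -0.35 with LPS in cordycepin, 0.10 with cordycepin at rest and -0.10 with cordycepin in LPS. Relative to the latter medians, Ptafr changed by -1.41 at rest and -1.48 in LPS. Signals near background limit Ccr1, Fpr1, Fpr2, C5ar1, Ltb4r1, Cd79a, Cd79b and Mpo.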
